A study of Mus musculus with 6 samples.

Results

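The caspases and their direct regulators were followed here through 8 genes: Casp1, Casp2, Casp6, Casp8, Casp9, Apaf1, Cflar and Xiap. They were chosen by name, as every probe set whose single gene symbol in the platform annotation is one of these, which gave 22 of the 45037 probe sets on the array other than controls, and 8 of its 18193 named genes. The arrays measured total RNA of mouse lymph node T cells on a single-colour Affymetrix whole-genome design, in which a probe set is a group of short probes read out as 1 intensity. Per the labels, 3 arrays hold Ezh2 deficient lymph node T cells and 3 hold lymph node T cells of the Ezh2 fl/fl genotype, in which, in the usual notation, both Ezh2 alleles carry loxP sites. The labels name no Cre driver, deleted exon, age, sex or batch, and nothing in them ties the arrays to separate animals. The p-values therefore rest on the spread among these arrays alone, and that spread may be technical. Replicates are numbered within each group, and the numbers pair no samples.

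Caspases are proteases that cut after aspartate and are held as inactive proenzymes. In the mitochondrial route of apoptosis, cytochrome c released from mitochondria lets Apaf1 assemble into the apoptosome, which recruits and activates caspase-9, the initiator that then cuts the executioner caspases. In the death receptor route, receptors such as Fas recruit the adaptor Fadd and with it caspase-8, whose activation is restrained by Cflar (c-FLIP), a caspase-8 relative without protease activity. Xiap binds and inhibits caspase-9 and the executioner caspases, and caspase-1 works apart from these routes, in inflammasomes that mature interleukin-1β and interleukin-18. In T cells the death receptor route is known for the removal of activated cells and the mitochondrial route for death on loss of survival signals.

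Ezh2, the catalytic subunit of the complex that methylates lysine 27 of histone H3, checked the labels. Its probe set read 282.4, 288.9 and 275.8 in the Ezh2 deficient arrays and 579.2, 683.8 and 801.3 in the Ezh2 fl/fl arrays, in normalised intensity (log2 difference -1.16, adjusted p = 0.0705). The difference became -1.28 (adjusted p = 0.0306) when Ezh2 fl/fl replicate 1 was left out. T cell markers were bright, with summed intensities of 87918 to 88390 over 11 genes in the deficient arrays and 85093 to 88251 in the Ezh2 fl/fl arrays. Of the natural killer cell markers 3 were tested, all higher with a median difference of 0.34, and 0 were called by limma (1 at an unadjusted p under 0.05). Ncr1, Klra8 and Tyrobp were too dim to be tested, and Klrb1c and Klri2 had no probe set with their single symbol. Of 6 B cell markers tested 3 were higher and 3 lower, and of 4 stromal and endothelial markers 2 were higher and 2 lower. Of 2 granulocyte markers 1 was higher and 1 lower. The 1 erythroid marker tested was lower (limma unadjusted p = 0.0297), and 0 of all these were called. Ezh2 fl/fl replicate 1 stood apart from the other arrays, at -41.5 on the first principal component where the others lay between 1.48 and 15.1, so some values are also given without it. The quantity in bulk RNA is a level per sample, in which fewer cells of a type and less RNA per cell cannot be told apart.

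No probe set of the 8 genes passed the test across all probe sets. Of the 22 probe sets, 19 were bright enough to be tested, 17 had a positive log2 difference (Ezh2 deficient minus Ezh2 fl/fl) and 2 a negative one, and 0 had an adjusted p under 0.05 by limma. Among all 27022 probe sets tested 49.3% had a positive difference, 0.0037% were called and 7.22% had an unadjusted p under 0.05. That unadjusted level was reached by 1 of the 19, a probe set of Casp9 with a positive difference, where 3.84% of all probe sets reached it with a positive one. The median difference was 0.08 over the 19 probe sets and -0.003 over all probe sets tested. The 17 became 13 under the deposited scaling, and probe sets of a gene read the same transcripts, so they are not independent. The groups did not overlap for 2 of the 19 probe sets, 1 each of Casp9 and Apaf1, where the deficient arrays were the higher ones. Of all probe sets tested 13.1% did not overlap, 6.55% with the deficient arrays higher. In 18 of the 19 the difference was under 0.25 in size, and in 13 the whole 95% interval lay between -0.50 and 0.50. The same held for 83.5% and 63.0% of all probe sets tested.

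**Figure D1:**
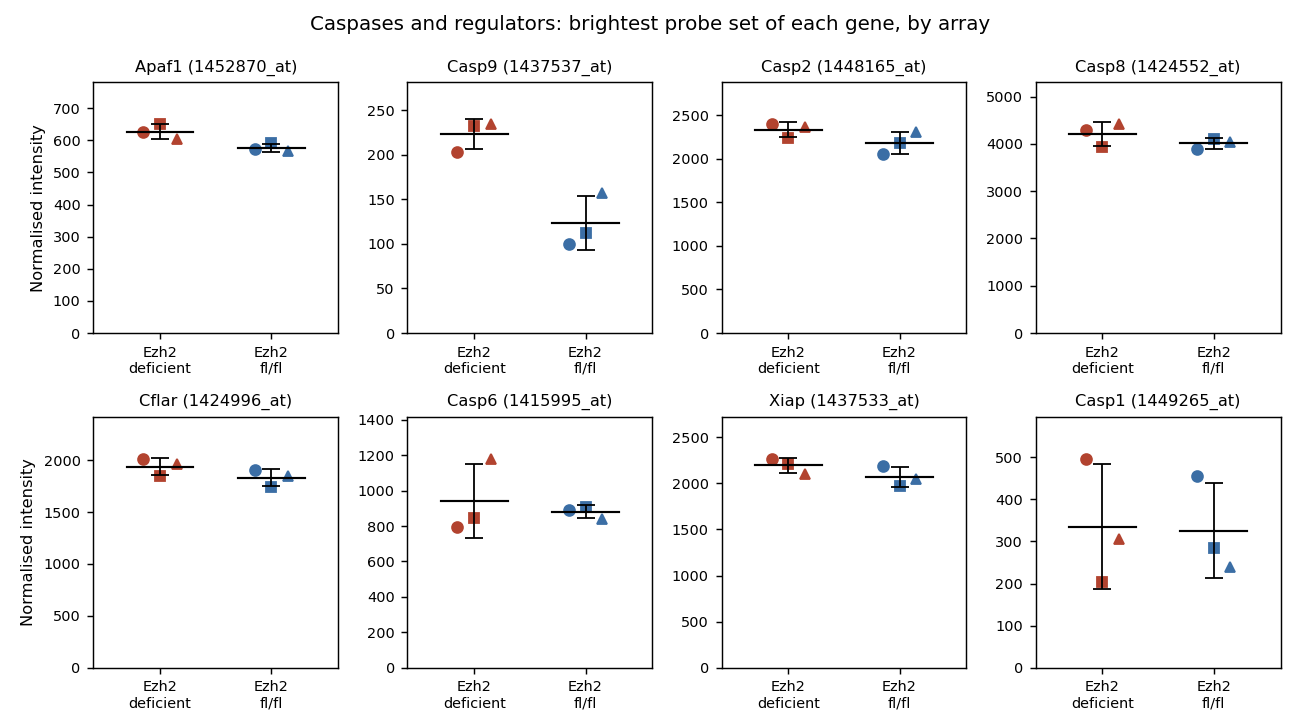
Normalised intensity (linear, from 0) of the brightest probe set of each of the 8 genes, Ezh2 deficient arrays left (red) and Ezh2 fl/fl arrays right (blue), with circle, square and triangle for replicates 1, 2 and 3 and a bar for the mean ± SD (n = 3 each). The groups are apart for Casp9 and, by a small margin, for Apaf1, and the Casp1 arrays spread widely in both groups.

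**Figure D2:**
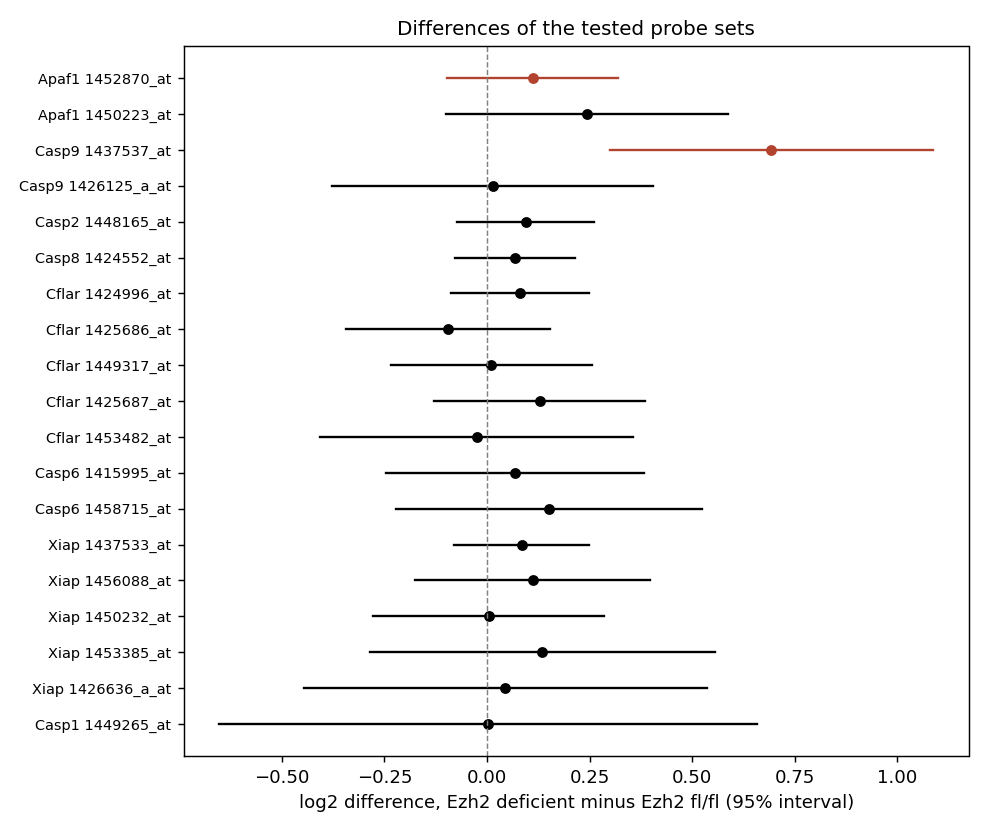
log2 difference of the 19 tested probe sets, Ezh2 deficient minus Ezh2 fl/fl, as points with 95% limma intervals as lines, grouped by gene. Red marks the 2 probe sets whose groups do not overlap, and the Casp9 probe set 1437537_at at 0.69 is the 1 whose interval leaves out 0.

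Within the mitochondrial route, Casp9 had the largest difference among the 8 genes, on 1 of its 3 probe sets. That probe set, 1437537_at, read 203, 232 and 234 in Ezh2 deficient T cells and 99.9, 112 and 158 in Ezh2 fl/fl T cells. Every deficient array lay above every Ezh2 fl/fl array, with means of 223 ± 17.3 and 123 ± 30.4 (SD, n = 3 each). The log2 difference was 0.69 (SE 0.17, 95% interval 0.30 to 1.09), or 1.62-fold with an interval of 1.23 to 2.12, and the adjusted p was 0.520 by limma. The probe set is dim, at the 50.1th percentile of mean log2 value, where the filter cuts at the 40th. Without Ezh2 fl/fl replicate 1 the difference was 0.59 (adjusted p = 0.623).

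The other Casp9 probe sets did not show this separation. Probe set 1426125_a_at, about as bright, read 130.1, 198 and 165 in the deficient arrays and 144, 167 and 171 in the Ezh2 fl/fl arrays, so the deficient arrays lay on both sides of the others. Its log2 difference was 0.01 (95% interval -0.38 to 0.41, adjusted p = 0.990). Probe set 1457816_at read 51.2, 31.8 and 34.5 in the deficient arrays and 56.1, 35.8 and 31.2 in the Ezh2 fl/fl arrays, too dim to be tested. On each array the value of 1426125_a_at was then set against that of 1437537_at. This ratio differed between the groups by -0.68 on the log2 scale (95% interval -1.02 to -0.34, adjusted p = 0.905). By its unadjusted p it ranked 10th among 9727 pairs of probe sets of 1 gene in the series, of which 0 were called and 5.35% had an unadjusted p under 0.05. Averaged over its tested probe sets, Casp9 was at 0.35 (95% interval -0.01 to 0.71, adjusted p = 0.588).

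**Figure D3:**
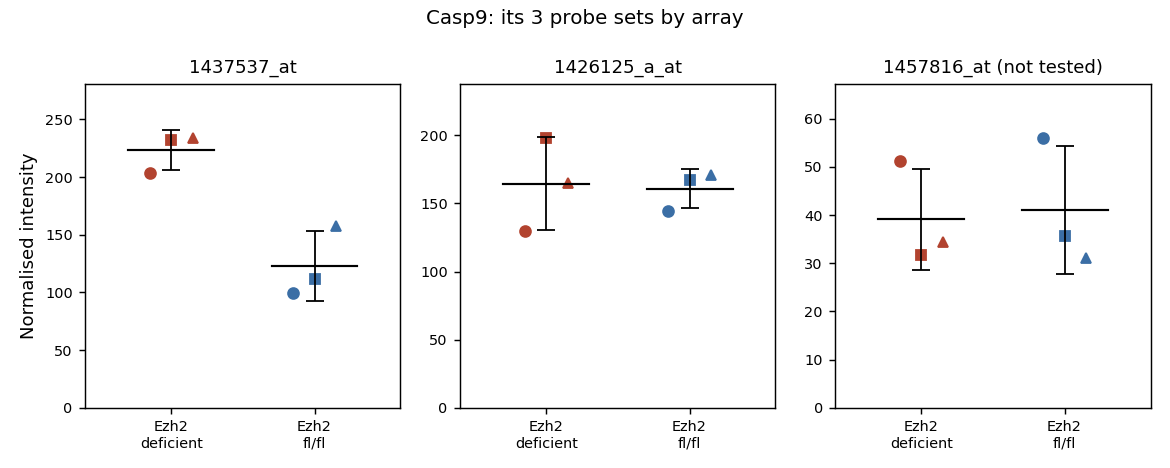
Normalised intensity (linear, from 0) of the 3 Casp9 probe sets, Ezh2 deficient arrays left and Ezh2 fl/fl arrays right, with circle, square and triangle for replicates 1, 2 and 3 and a bar for the mean ± SD (n = 3 each). The groups are apart on 1437537_at (223 against 123 on average) and overlap on 1426125_a_at (164 against 161) and on 1457816_at (39.1 against 41.0).

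Apaf1, the scaffold of the apoptosome, was slightly higher on both probe sets, within error. Its brighter probe set, 1452870_at, read 625, 651 and 606 in the deficient arrays and 575, 590.4 and 567 in the Ezh2 fl/fl arrays. These groups did not overlap, and the arrays of a group lay close together: the spread within groups was smaller for 2.17% of all tested probe sets at most. The log2 difference was 0.11 (95% interval -0.10 to 0.32, adjusted p = 0.823). Probe set 1450223_at read 322, 305 and 331 in the deficient arrays and 334, 223 and 242 in the Ezh2 fl/fl arrays. Its groups overlapped through Ezh2 fl/fl replicate 1 alone, and its difference of 0.24 (adjusted p = 0.762) became 0.40 (adjusted p = 0.647) without that array.

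The promoters of Apaf1 and Casp9 are shown with that of Casp1 because Polycomb complexes are known in mammals to occupy promoters rich in CG dinucleotides, and these genes span the range of the 8 in that feature. Each sequence is the 250 bases before the RefSeq gene start, 5′ to 3′ along the gene (build GRCm38.p6), with every CG, the motif searched, in capitals. CG reads the same on both strands. A window with at least 1 CG is found for 92.1% of 32851 promoters, with a median of 6. The Apaf1 window, chr10:91082744-91082993 on the minus strand, holds 42, a count reached by 0.865% of promoters. The Casp9 window, chr4:141793362-141793611 on the plus strand, holds 25 (reached by 10.7%), and the Casp1 window, chr9:5298267-5298516 on the plus strand, holds 1.
Apaf1: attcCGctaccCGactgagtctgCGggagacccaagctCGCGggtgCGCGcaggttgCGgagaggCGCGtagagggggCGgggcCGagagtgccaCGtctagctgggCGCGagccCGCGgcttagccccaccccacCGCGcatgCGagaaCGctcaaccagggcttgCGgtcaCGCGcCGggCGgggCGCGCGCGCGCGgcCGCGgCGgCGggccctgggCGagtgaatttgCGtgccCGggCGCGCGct
Casp9: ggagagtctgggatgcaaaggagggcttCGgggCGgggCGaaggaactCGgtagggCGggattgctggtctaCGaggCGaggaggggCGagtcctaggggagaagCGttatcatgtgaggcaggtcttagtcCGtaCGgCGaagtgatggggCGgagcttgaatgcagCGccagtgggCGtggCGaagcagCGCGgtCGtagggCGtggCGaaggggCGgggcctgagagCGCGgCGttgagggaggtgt
Casp1: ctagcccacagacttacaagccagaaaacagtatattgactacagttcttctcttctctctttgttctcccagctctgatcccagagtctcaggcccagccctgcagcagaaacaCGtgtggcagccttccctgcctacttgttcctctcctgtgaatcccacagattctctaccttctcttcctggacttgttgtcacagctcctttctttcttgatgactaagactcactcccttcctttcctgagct
The CGs of Apaf1 and Casp9 are spread over most of the window, while the single CG of Casp1 lies near its middle. The Casp9 window has gaps without CG at both ends and inside it. The windows of the other genes held 17 for Casp2, 11 for Casp6, 7 for Cflar, 5 for Casp8 and, at its 3 annotated starts, 13, 1 and 1 for Xiap. No histone mark was measured, so these counts describe the sequence only.

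Xiap, the inhibitor that binds caspase-9, had 7 probe sets, of which 5 were tested. The brightest, 1437533_at, read 2265, 2214 and 2106 in the deficient arrays and 2183, 1975 and 2046 in the Ezh2 fl/fl arrays, with overlapping groups. Its log2 difference was 0.08 (95% interval -0.08 to 0.25, adjusted p = 0.829). The other tested probe sets lay between 0.004 and 0.14, and the widest interval, of 1426636_a_at, ran from -0.45 to 0.54. The largest of them, 0.14 on 1453385_at, was 0.021 without Ezh2 fl/fl replicate 1. The untested probe sets 1450231_a_at and 1421394_a_at averaged 92.6 and 56.6 in the deficient arrays and 71.9 and 59.8 in the Ezh2 fl/fl arrays, each with overlapping groups. The 5 tested Xiap probe sets thus gave differences within 0.13 of each other, where the tested Casp9 probe sets were 0.68 apart.

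Set against Casp9 on the same array, Xiap gave a result that turned on the Casp9 probe set used. Levels of different probe sets cannot be compared, so only the change of their ratio between groups is meaningful. The log2 ratio of the brightest Xiap probe set over Casp9 1437537_at was 3.23, 3.03 and 2.95 in the deficient arrays and 3.96, 3.70 and 3.38 in the Ezh2 fl/fl arrays. All deficient arrays were lower, the means differed by -0.61, and the two-sided exact permutation p of 0.10 is the smallest that 3 arrays against 3 allow (0.20 adjusted over the 2 such ratios tested). With Casp9 1426125_a_at, an alternative added after the data were seen, the ratio differed by 0.07 (exact permutation p = 0.7).

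In the death receptor route, Casp8 and its inhibitor Cflar were close to equal in the groups. Casp8, the initiator caspase of this route, read 4292, 3935 and 4419 in the deficient arrays and 3889, 4111 and 4047 in the Ezh2 fl/fl arrays on its single probe set. The groups overlapped, and the log2 difference was 0.07 (95% interval -0.08 to 0.22, adjusted p = 0.847), which as a fold spans 0.947 to 1.16. Cflar, which lies next to Casp8 on the chromosome with 0 protein-coding genes between them in the GRCm38.p6 RefSeq table, had 5 probe sets, all tested. The brightest, 1424996_at, read 2013, 1845 and 1959 in the deficient arrays and 1906, 1743 and 1847 in the Ezh2 fl/fl arrays (log2 difference 0.08, 95% interval -0.09 to 0.25, adjusted p = 0.841). The others ran on both sides of 0. Probe set 1425686_at, at -0.09, was the lowest of the 19, and its Ezh2 fl/fl replicate 1 read 1090 against 848 and 866 in the other Ezh2 fl/fl arrays and 860, 898 and 843 in the deficient arrays. Probe set 1453482_at was at -0.03, 1449317_at at 0.01 and 1425687_at at 0.13, each with overlapping groups. Without Ezh2 fl/fl replicate 1, 1425686_at was at 0.016 and 1453482_at at -0.21. The log2 ratio of Cflar 1424996_at over Casp8 was -1.08, -1.07 and -1.16 in the deficient arrays and -1.01, -1.22 and -1.11 in the Ezh2 fl/fl arrays. These ranges overlapped and the means differed by 0.01 (exact permutation p = 1.0, also 1.0 after adjustment).

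The remaining initiator and executioner were Casp2 and Casp6. Casp2, an initiator caspase that the PIDDosome activates, read 2398, 2235 and 2363 in the deficient arrays and 2054, 2185 and 2311 in the Ezh2 fl/fl arrays. The groups overlapped, with a log2 difference of 0.09 (95% interval -0.07 to 0.26, adjusted p = 0.809). Casp6, an executioner that cuts nuclear lamin A, read 796, 843 and 1179 in the deficient arrays and 893, 908 and 841 in the Ezh2 fl/fl arrays on its brighter probe set, 1415995_at. Deficient replicate 3 stood above all other arrays and replicates 1 and 2 near or below the Ezh2 fl/fl range, so that the difference of 0.07 became -0.10 without deficient replicate 3. Its other probe set, 1458715_at, read 168, 148 and 181 in the deficient arrays and 127, 138 and 171 in the Ezh2 fl/fl arrays (log2 difference 0.15, 95% interval -0.22 to 0.52). On that probe set deficient replicate 3 was within reach of the others.

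Casp1, the inflammasome caspase, varied between arrays of 1 genotype more than between genotypes. It read 496, 203 and 305 in the deficient arrays and 455, 284 and 239 in the Ezh2 fl/fl arrays on its single probe set. Replicate 1 of either group was high and the rest low, and the means were 335 ± 149 and 326 ± 114 (SD, n = 3 each). The log2 difference was 0.003, with a 95% interval of -0.65 to 0.66 that spans 0.636-fold to 1.58-fold. Its spread within groups was 0.50 on the log2 scale, at the 97.5th percentile of all tested probe sets, where Casp8 was at the 9.41th and Casp2 at the 10.2th. Without deficient replicate 1 the difference was -0.29, without deficient replicate 2 it was 0.27, and without Ezh2 fl/fl replicate 1 it was 0.24. Caspase-1 is abundant in macrophages, and 11 macrophage and monocyte markers summed to 1256 to 1363 in the deficient arrays and 1411 to 1556 in the Ezh2 fl/fl arrays. Of these, 5 were bright enough to be tested, and Cd14, Itgam, Mpeg1, C1qa, C1qb and Marco were not. Among the 5, 1 was higher and 4 lower (median difference -0.14). By limma 0 were called, and 1 of the lower ones had an unadjusted p under 0.05. Their part in the Casp1 values was not tested.

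Casp4, which encodes caspase-11, the mouse sensor of cytosolic lipopolysaccharide, is the gene next to Casp1. Unlike Casp1 it was separated by group, reading 323, 161 and 196 in the deficient arrays and 43.2, 137 and 49.3 in the Ezh2 fl/fl arrays. Its log2 difference was 1.21 (95% interval 0.49 to 1.93, adjusted p = 0.520), with Ezh2 fl/fl replicates 1 and 3 close to the pseudocount. Interferons induce Casp4, and 17 tested interferon-induced genes stood beside it, of which 16 were higher, with a median difference of 0.71. By limma 0 of the 17 were called over all probe sets, with a smallest adjusted p of 0.161. An unadjusted p under 0.05 was reached by 12. Relative to the Ezh2 fl/fl mean, the median of these genes was 0.99, 0.25 and 0.96 in deficient replicates 1, 2 and 3, against -0.22, -0.01 and 0.35 in the Ezh2 fl/fl replicates. Among the deficient arrays this list, Casp4 and Casp1 were all highest in replicate 1 and lowest in replicate 2, while Casp9 1437537_at was higher in replicate 2 than in replicate 1. Among the Ezh2 fl/fl arrays the list was lowest in replicate 1, where Casp1 was highest, and Casp4 was highest in replicate 2. Dendritic cell markers summed to 2314, 1742 and 1824 in the deficient arrays and 1440, 1785 and 1333 in the Ezh2 fl/fl arrays over 9 genes. Of the 6 tested, 4 were higher and 2 lower (median 0.11), 0 were called by limma, and 2, Ccl22 at 0.51 and Fscn1 at 1.18, had an unadjusted p under 0.05. The dendritic cell markers Itgax and Xcr1 were at 0.02 and 0.19, and the lowest of the 6 was at -0.30. Flt3, Cd209a and Batf3 were too dim to be tested. As a log2 value relative to the Ezh2 fl/fl mean, the median over the 9 genes was -0.04, -0.14 and -0.08 in the deficient arrays. In the Ezh2 fl/fl arrays that median was 0.16, -0.04 and -0.16. The part of the interferon-induced genes and of the dendritic cell markers in these values was not tested.

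**Figure D4:**
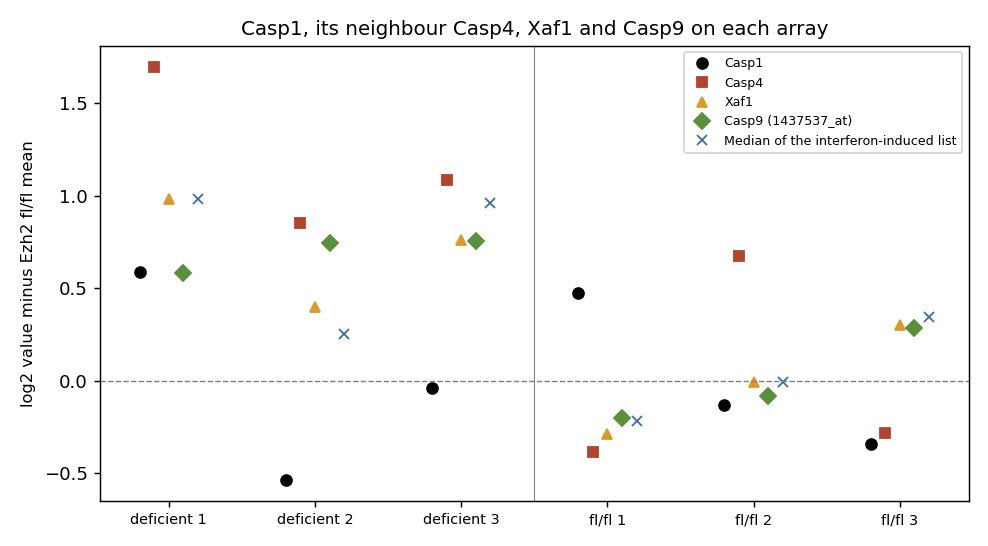
log2 value on each array minus the Ezh2 fl/fl mean for Casp1, Casp4, Xaf1, the Casp9 probe set 1437537_at and the median of the interferon-induced list, with the Ezh2 deficient arrays left of the line and the Ezh2 fl/fl arrays right. Casp4, Xaf1 and Casp9 lie higher on every deficient array than on any Ezh2 fl/fl array, and Casp1 does not. Xaf1 is itself a gene of the interferon-induced list.

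Around the 8 genes, 0 genes of the surrounding lists passed limma's test over all probe sets, each gene read at its brightest tested probe set. Of the other IAP proteins and their antagonists, 9 were tested, 6 had a higher level and 3 a lower one (median difference 0.05), and 1 had an unadjusted p under 0.05. Among them Xaf1, an interferon-induced protein that binds Xiap and opposes it, read 4393, 2907 and 3752 in the deficient arrays and 1791, 2183 and 2712 in the Ezh2 fl/fl arrays. Every deficient array was higher (log2 difference 0.71, 95% interval 0.33 to 1.10, adjusted p = 0.483). Xaf1 is also in the interferon-induced list, and its difference is that list's median of 0.71, so these values are not separate observations. Birc3, the IAP protein cIAP2, was at 0.23 (adjusted p = 0.722). Of 9 genes of the apoptosome and cytochrome c release, 5 were higher and 4 lower (median 0.07), and 1 in each direction had an unadjusted p under 0.05. Mcl1, which guards mitochondria against Bak and Bax, was at 0.13 (adjusted p = 0.636) and Prelid1, a lipid carrier of mitochondria, at -0.18 (adjusted p = 0.619). Cycs, cytochrome c itself, was at -0.02 with a 95% interval of -0.13 to 0.09.

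Of 13 death receptor and adaptor genes, 5 were higher and 8 lower (median -0.04), and 0 reached an unadjusted p under 0.05 at the brightest probe set. The adaptor Fadd read 423, 421 and 484 in the deficient arrays and 626, 480.3 and 488 in the Ezh2 fl/fl arrays (log2 difference -0.24, adjusted p = 0.722), with overlapping groups. On its dimmer probe set, 1446499_at, the groups did not overlap, with the deficient arrays lower. The log2 difference there was -0.39 (95% interval -0.76 to -0.03, limma unadjusted p = 0.0387, adjusted p = 0.668). Faim, an inhibitor of Fas-induced death, was at -0.16 and the receptor Fas at 0.15, both with intervals that include 0. Of 7 inflammasome genes and caspase-1 substrates, 4 were higher and 3 lower (median 0.03), and 1 of the lower ones had an unadjusted p under 0.05. Il1b, the interleukin-1β precursor that caspase-1 cuts, was dim and read 128, 143 and 146 in the deficient arrays and 257, 204 and 248 in the Ezh2 fl/fl arrays. Every deficient array was lower (log2 difference -0.62, adjusted p = 0.484). Mefv, which encodes pyrin, was at -0.26 (adjusted p = 0.700), and the adaptor Pycard, at 0.08, had a 95% interval of -0.35 to 0.50. Of 12 executioner caspase substrates, 7 were higher and 5 lower (median 0.02), and 2 of the lower ones had an unadjusted p under 0.05. The lamin gene Lmnb2 was at -0.47 (adjusted p = 0.668) and the spectrin gene Sptan1 at -0.15 (adjusted p = 0.692). Of the other caspases, Casp14, an epidermal caspase, was at -0.35 (adjusted p = 0.716) on 1443787_x_at, with overlapping groups. Its other probe set, 1418748_at, was too dim to be tested. That one read 16.85, 28.1 and 36.4 in the deficient arrays and 20.3, 21.8 and 24.4 in the Ezh2 fl/fl arrays. Casp12 was also too dim to be tested.

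**Figure D5:**
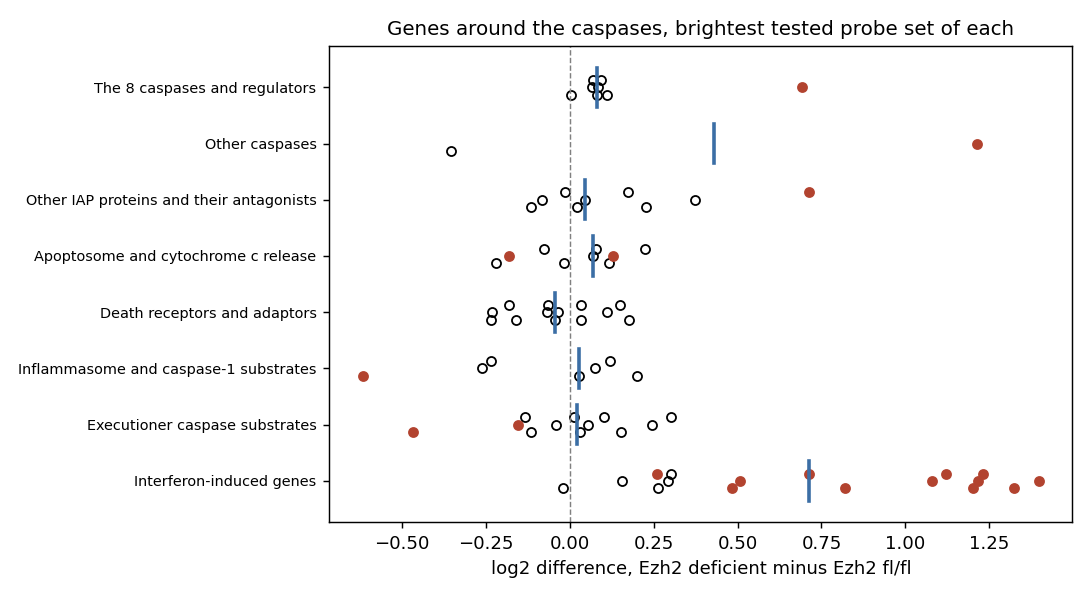
log2 difference (Ezh2 deficient minus Ezh2 fl/fl) of each gene at its brightest tested probe set, for the 8 caspases and regulators and for the surrounding lists, with a blue bar at each list's median. Filled red points have an unadjusted limma p under 0.05 and open points do not, and the medians lie from -0.04 to 0.08 apart from the 2 other caspases (0.43) and the interferon-induced genes (0.71). Xaf1 appears both in the IAP list and in the interferon-induced list.

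The probe sets whose pattern over the 6 arrays was closest to that of Casp9 1437537_at, by the root mean square difference of centred log2 values, belonged to Bbc3, Plagl1 and Ctnna1. Bbc3, which encodes the BH3-only protein Puma, differed from it by 0.06 and read 837, 1056 and 980.2 in the deficient arrays and 472, 566 and 676 in the Ezh2 fl/fl arrays. Its own log2 difference was 0.71 (adjusted p = 0.344). Plagl1, a zinc finger transcription factor, was 0.09 away and Ctnna1, which encodes α-catenin, 0.11 away. They were picked as the closest of 27021 probe sets, so their likeness is a description of these 6 arrays.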

How the data were processed

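The authors deposited linear intensities, with a value for each probe set on each array. How they made them is not given in the sources used here. Array medians differed by 15.2%, over the tolerance of 10%, so the arrays were quantile normalised and turned into log2(intensity + 43.3), the pseudocount being the 20th percentile of values above 0, which shrinks the folds of dim probe sets. Control probe sets (64) and those below the 40th percentile of mean log2 value were left out, leaving 27022. limma 3.58.1 (R 4.3.3, eBayes with trend) tested Ezh2 deficient minus Ezh2 fl/fl over 3 arrays against 3, two-sided, adjusted by Benjamini-Hochberg over all probe sets. The same fit on within-array differences compared each probe set with the brightest of its gene. The fits were tested on simulated data. For the probe set fit, 48% of the probe sets changed 1.5-fold were called and 92% of those changed 2-fold. Of its 188 calls 18 were false. The number of arrays limits the precision.

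Gene names came from the platform annotation, which gave a name to probe sets with 1 symbol; probe sets ending in _a_at match several transcripts of a gene. All 8 genes were in the RefSeq promoter table. The members and lists were chosen with earlier results of these data known. The genes named were all members, the 2 of each pathway list with the smallest unadjusted p, Fas, Fadd, Cycs, Pycard and Ezh2, and the 3 probe sets closest in pattern. The interferon-induced list was left out of this rule and was given as counts and a median. Casp12 and the cell type markers were named after their values were seen. Alternatives were the scaling, pseudocount, filter, eBayes options, array weights, genes in place of probe sets and each array left out.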

Additional observations from a re-analysis of the deposited data

How the results depend on the processing

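With 3 arrays a group, differences of the size seen here for most of the 8 genes could not be told from the spread between arrays. No paired analysis was possible because the labels carry no replicate numbers shared by the groups. The count of called probe sets of the 8 genes was 0 under every alternative run. At an unadjusted p under 0.05 the count was 1 in the fit reported above and in most alternatives. It was 2 without Ezh2 fl/fl replicate 1, where Apaf1 1450223_at was added (limma unadjusted p = 0.0168). With the filter at the 60th percentile and with genes in place of probe sets it was 0. Over all probe sets the count of 1 was 3 under the deposited scaling, 2 with its median centring, 3 by robust eBayes, 3 with array weights, 2 with genes in place of probe sets, 1951 at an unadjusted p under 0.05, and 1 to 6 with an array left out (6 when deficient replicate 2 was dropped, and 3 when Ezh2 fl/fl replicate 1 was). Pairs of probe sets of a gene gave 0 calls throughout. The Ezh2 probe set stayed between -1.28 and -1.05 with an array left out, and passed adjustment without Ezh2 fl/fl replicate 1 (adjusted p = 0.0306), under the deposited scaling (-1.19, 0.0421), by robust eBayes (-1.16, 0.04997) and with array weights (-1.20, 0.0346). In the other alternatives its adjusted p was 0.0564 to 0.263.

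The count of 17 higher probe sets, with alternatives chosen after seeing the data, was 13 to 17 with an array left out, 11 of 13 with the filter at the 60th percentile and 8 of 8 with genes in place of probe sets, where fewer features were tested. The median difference of 0.08 was 0.15 with median centring, where that of all probe sets was 0.06, and 0.062 to 0.11 with an array left out. Casp9 1437537_at was positive in all 14 alternatives that tested it (0.42 to 0.84, unadjusted p 0.00116 to 0.0132, adjusted p from 0.352), and the 60th percentile filter left it out. Xiap minus Casp9 ran from -0.76 to -0.47 with an array left out and was 0.070 with the dimmer tested Casp9 probe set. Cflar minus Casp8 ran from -0.040 to 0.063 with an array left out.

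Other signs turned in 21 of 276 single probe set results, none of them called; the cause was not tested. Under the deposited scaling Casp9 1426125_a_at was at -0.055, Xiap 1426636_a_at at -0.025, Casp1 at -0.031 and Xiap 1450232_at at -0.049. Casp9 1426125_a_at was at -0.015 with array weights, and Casp1 at -7.67e-05 with the lower pseudocount. With an array left out, Casp1 ran from -0.29 to 0.27, Casp6 1415995_at from -0.10 to 0.17, Casp9 1426125_a_at from -0.10 to 0.14, Xiap 1426636_a_at from -0.091 to 0.19, Xiap 1450232_at from -0.043 to 0.044, Cflar 1425686_at from -0.16 to 0.016, Cflar 1449317_at from -0.047 to 0.11 and Cflar 1453482_at from -0.21 to 0.12.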
